A study of Mus musculus with 12 samples.

Results

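Glucocorticoids, the steroid hormones of the adrenal cortex, act in lymphoid tissue through the glucocorticoid receptor, and 8 genes that report on this axis are described here across a bulk RNA-seq series of mouse lymph nodes. They are the receptor gene Nr3c1 and 7 genes known to be induced by it, Fkbp5, Tsc22d3, Zbtb16, Pdk4, Sgk1, Dusp1 and Klf9. The 8 were taken by symbol from a table of 55487 genes, each matched 1 Ensembl gene, and all 8 were among the 17301 genes with enough counts to be tested. None of the 8 passed the test in any of the 7 comparisons made. What the data do show is the level of each gene in every library. The Fkbp5 mean was highest after nerve inhibition without a tumour. The Zbtb16 mean was lowest in the tumour group with intact nerves. Neither difference passed, and in 1 library 5 of the 8 stood highest.

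The series holds 12 libraries, 3 in each of 4 groups, and asks how the nerves that serve a tumour-draining lymph node bear on that node before metastasis. Tumour-bearing mice (T) had been given B16F10 cells, a mouse melanoma line, in the tongue, and tumour-free mice (NT) had not. In the NDE groups the nociceptive (pain-sensing) nerves of the draining node had been inhibited, and in the NC groups they had not. The groups are therefore NT NC (neither), T NC (tumour only), NT NDE (nerve inhibition only) and T NDE (both). The labels do not give the strain, age or sex of the mice, how the nerves were inhibited, or whether 1 library holds 1 mouse, and they name the 3 libraries of a group as biologically independent.

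Library totals ran from 16862953 to 24467873 counts. All 13 lymph node markers used, such as Cd3e, Ccr7 and Cxcl13, were above 0 in every library, with a summed level of 3382 to 4020 CPM (library-size scaled counts). Transcripts of another tissue were present in 3 libraries: 15 salivary gland genes summed to 41980 CPM in T NDE replicate 3, and NT NC replicates 3 and 2 had 30310 and 1582 CPM of them, against 18.4 to 69.4 CPM in the other 9. T NDE replicate 3 also had the highest level of all 9 tested adipocyte genes (summed 10-gene level 181.6 CPM, against 85.7 to 128 CPM elsewhere) and the highest red blood cell level (250.1 CPM, against 144 CPM in NT NDE replicate 3 and 40.3 to 53.5 CPM elsewhere). Values without these libraries are given beside the results of the 8 genes that turned on them. In bulk tissue, fewer cells of a type and less RNA per cell cannot be told apart.

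The unliganded receptor is held in the cytoplasm by HSP90 and its co-chaperones. On binding hormone it moves to the nucleus, where it activates genes through a palindromic response element and dampens inflammatory genes. In lymphoid tissue glucocorticoids are known for anti-inflammatory effects, for the death of immature and activated lymphocytes and for daily rhythms in lymphocyte traffic. Among its targets, FKBP5 is a co-chaperone that lowers the receptor's affinity for hormone. GILZ, the product of Tsc22d3, restrains inflammatory transcription factors, and DUSP1 removes phosphate from MAP kinases. SGK1 is a serine/threonine kinase, PDK4 blocks the entry of pyruvate into mitochondrial oxidation, and ZBTB16 (PLZF) and KLF9 are transcription factors.

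Promoter sequence from RefSeq (GRCm38.p6, the patch release of the mm10 build) was searched in the 250 bases before each start site. Entries were found for 6 of the 8 genes, with 13 start sites. The motifs, sought on both strands, were the full response element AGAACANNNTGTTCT, its half-site AGAACA, which the full element contains, the cAMP response element TGACGTCA, the E-box CACGTG and the forkhead site GTAAACA. The stretches below, written 5′ to 3′ on the strand of the gene with the matches in capitals, show which members carry which site and lie outside annotated exons.
Sgk1: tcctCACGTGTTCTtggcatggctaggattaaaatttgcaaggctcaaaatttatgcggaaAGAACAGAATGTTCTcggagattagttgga
Dusp1: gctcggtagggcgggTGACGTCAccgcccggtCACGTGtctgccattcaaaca
Fkbp5: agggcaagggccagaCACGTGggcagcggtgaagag
Klf9: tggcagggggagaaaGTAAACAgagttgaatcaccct
Tsc22d3: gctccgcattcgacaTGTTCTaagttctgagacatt

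The Sgk1 stretch (chr10:21993640-21993730, plus strand) belongs to the fifth of 6 listed start sites. Its full element, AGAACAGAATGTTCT, runs from 189 to 175 bases before that start site, and the capitals at its 5′ end are an E-box overlapping a half-site on the other strand. The full element occurred in 3 of 32851 promoter windows (0.00913%), those of Sgk1, Acnat2 and Gm35041. The Dusp1 stretch (chr17:26508578-26508630, minus strand) holds a cAMP response element, found in 1.55% of windows, and an E-box, found in 6.02%. An E-box alone was found for Fkbp5 (chr17:28486298-28486333, minus strand). Klf9 (chr19:23141111-23141147, plus strand) had a forkhead site, found in 3.17% of windows, and the third Tsc22d3 start site (chrX:140600687-140600722, minus strand) had a half-site, found in 16.1%. Half-sites were also found at Sgk1 start sites 1 and 4, whose stretches are not printed. The shares are per window, and Sgk1 with 6 windows and Tsc22d3 with 3 had more windows in which to match. The single Pdk4 window held none of the 5 motifs. These matches describe letters in a window and say nothing of binding in these samples.

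Levels per length, as CPM per kilobase of exon (RPKM, averaged over the 12 libraries), ordered the genes from Tsc22d3 at 43.4 through Nr3c1 at 24.0, Sgk1 at 18.5, Fkbp5 at 9.78, Dusp1 at 6.81, Klf9 at 5.06 and Pdk4 at 1.02 to Zbtb16 at 0.968. Tsc22d3 was thus at the 93.7th percentile of tested genes and Zbtb16 at the 21.5th. The ranges over libraries did not overlap between Tsc22d3 (28.6 to 72.0 RPKM) and Nr3c1 (22.0 to 25.3 RPKM), nor between Sgk1 (16.9 to 23.3 RPKM) and Fkbp5 (8.02 to 12.2 RPKM). The ranges of Klf9 (3.70 to 8.21 RPKM) and Pdk4 (0.474 to 2.93 RPKM) were apart too, while the other neighbours in this order overlapped. The genes also differed in how much they varied: the highest library exceeded the lowest 6.20-fold for Pdk4, 3.72-fold for Zbtb16, 2.52-fold for Tsc22d3, 2.50-fold for Dusp1 and 2.22-fold for Klf9, but only 1.52-fold for Fkbp5, 1.38-fold for Sgk1 and 1.15-fold for Nr3c1. Depth differed as well, since Pdk4 rested on 30 to 213 counts a library and Zbtb16 on 62 to 187, against 3102 to 4655 for Nr3c1.

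**Figure D1:**
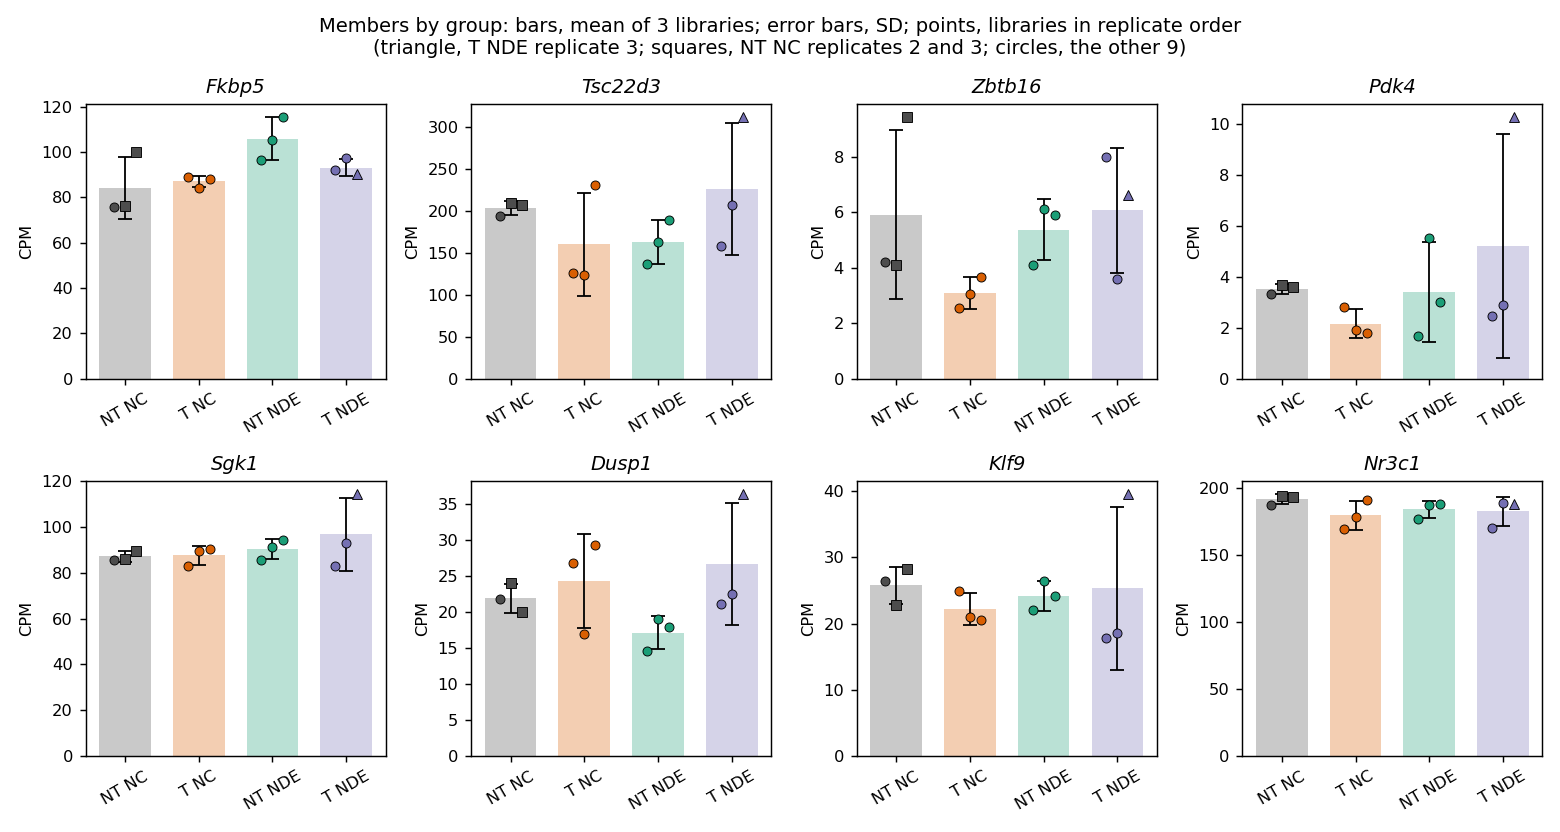
Level of each of the 8 genes in CPM (y axis, own scale from 0 per panel) by group (x axis). Bars are the mean of 3 libraries, whiskers the SD, and symbols single libraries (triangle, T NDE replicate 3; squares, NT NC replicates 2 and 3). The triangle lies far above its group for Pdk4 (10.3 CPM) and Klf9 (39.6 CPM), and Nr3c1 is nearly level in all groups.

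Nr3c1 encodes the receptor itself (chromosome 18, 39410545 to 39519421, minus strand; all gene positions are from GENCODE on GRCm38). Its level was 187, 194 and 193 CPM for NT NC, 169, 178 and 191 CPM for T NC, 176, 187 and 188 CPM for NT NDE, and 170.2, 189 and 188 CPM for T NDE. All 4 groups overlapped, and the receptor transcript was the steadiest of the 8. Group means ran from 179.5 ± 10.9 CPM (SD, n = 3) in T NC to 191 ± 3.86 CPM for NT NC. The largest of its 4 group-against-group differences was the log2 fold change of -0.09 (SE 0.06, 95% interval -0.22 to 0.04) for T NC against NT NC.

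Fkbp5, the co-chaperone most used as a readout of receptor activity, lies on chromosome 17 (28399094 to 28517527, minus strand). Its level was 76.0, 76.2 and 100.05 CPM for NT NC, 89.0, 84.3 and 88.1 CPM for T NC, 96.7, 106 and 116 CPM for NT NDE, and 92.1, 97.2 and 90.2 CPM for T NDE. NT NDE had the highest mean, and both NT NC replicate 3 and T NDE replicate 2 reached into the range of its libraries. Every T NDE library was above every T NC library, by a small margin. The NT NDE mean of 106 ± 9.47 CPM (SD, n = 3) was 1.26-fold the NT NC mean of 84.1 ± 13.8 CPM in the fit, a log2 fold change of 0.33 (SE 0.10, 95% interval 0.13 to 0.54). Its unadjusted p was 0.00364, the edgeR adjusted p of 0.273 did not pass, and none of 13 alternative fits passed. NT NC replicate 3 is 1 of the libraries with salivary transcripts. Without those 3 libraries the log2 fold change was 0.48. NT NC was then replicate 1 alone, the lowest library of the series for Fkbp5.

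Tsc22d3, which encodes the anti-inflammatory protein GILZ, lies on the X chromosome (140539528 to 140600659, minus strand). It measured 194, 209.9 and 207 CPM for NT NC, 126, 124 and 231 CPM for T NC, 137, 163 and 189 CPM for NT NDE, and 159, 207 and 312 CPM for T NDE. NT NC was tight, while T NC and T NDE each held 1 library far above the other 2. All NT NDE libraries were below all NT NC libraries, with means of 163 ± 26.3 and 204 ± 8.61 CPM (SD, n = 3). The log2 fold change of -0.32 (SE 0.30) had a 95% interval of -1.02 to 0.37, which includes 0.

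Dusp1, the MAP kinase phosphatase, lies on chromosome 17 (26505590 to 26562128, minus strand) and shares 11 exonic bases with Ergic1 on the opposite strand. Its level was 21.8, 24.0 and 20.0 CPM for NT NC, 26.9, 16.9 and 29.3 CPM for T NC, 14.5, 19.0 and 18.0 CPM for NT NDE, and 21.2, 22.5 and 36.4 CPM for T NDE. NT NDE was the low group and lay below all NT NC and all T NDE libraries. Its mean there was 17.2 ± 2.33 CPM, against 26.7 ± 8.45 CPM in T NDE (SD, n = 3). The log2 fold change of T NDE against NT NDE was 0.64 (SE 0.24, unadjusted p 0.0210), with an edgeR adjusted p of 1.00.

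Zbtb16 encodes PLZF, a factor known for its role in innate-like T cells as well as for its induction by glucocorticoids (chromosome 9, 48654297 to 48836222, minus strand). It measured 4.22, 4.08 and 9.44 CPM for NT NC, 2.54, 3.05 and 3.67 CPM for T NC, 4.10, 6.11 and 5.89 CPM for NT NDE, and 8.01, 3.60 and 6.62 CPM for T NDE. T NC was low: all 3 of its libraries were below every NT NC and NT NDE library, and 1 T NDE library came down into its range. The T NC mean was 3.09 ± 0.568 CPM, against 5.92 ± 3.06 CPM in NT NC and 6.08 ± 2.25 CPM in T NDE (SD, n = 3). In the fit these differences were -0.94 on the log2 scale (SE 0.36, unadjusted p 0.0207) for T NC against NT NC and 0.98 (SE 0.36, unadjusted p 0.0169) for T NDE against T NC, 2 comparisons that share the T NC libraries. The edgeR adjusted p values were 0.582 and 0.803. Without the 3 libraries with salivary transcripts, which include NT NC replicate 3 at 9.44 CPM, the first became -0.45 and the second 0.92. The first then rested on 1 NT NC library, replicate 1.

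Klf9, a Krüppel-like factor that is a direct receptor target in many tissues, lies on chromosome 19 (23141226 to 23168134, plus strand). It measured 26.4, 22.8 and 28.2 CPM for NT NC, 25.0, 21.1 and 20.6 CPM for T NC, 22.0, 26.4 and 24.2 CPM for NT NDE, and 17.8, 18.5 and 39.6 CPM for T NDE. T NDE held both the 2 lowest libraries of all and the highest. Its mean of 25.3 ± 12.4 CPM (SD, n = 3) therefore describes none of its libraries, and no pair of groups was separated.

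Sgk1, the kinase known for its control of ion transport and of T helper cell balance, lies on chromosome 10 (21882184 to 21999903, plus strand). It measured 85.6, 86.2 and 89.8 CPM for NT NC, 82.9, 89.7 and 90.6 CPM for T NC, 85.6, 91.5 and 94.5 CPM for NT NDE, and 82.9, 93.1 and 114 CPM for T NDE. Apart from the last library, all values lay between 82.9 and 94.5 CPM. The groups overlapped in each comparison, and the largest group difference was a log2 fold change of 0.14 (SE 0.09, 95% interval -0.05 to 0.34) for T NDE against T NC.

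Pdk4, the brake on pyruvate oxidation that is also induced by fasting, lies on chromosome 6 (5483351 to 5496309, minus strand). It measured 3.32, 3.67 and 3.59 CPM for NT NC, 2.82, 1.89 and 1.78 CPM for T NC, 1.66, 5.52 and 3.00 CPM for NT NDE, and 2.47, 2.89 and 10.3 CPM for T NDE. All T NC libraries were below all NT NC libraries, and the NDE groups were widely spread. Means were 3.52 ± 0.182 CPM for NT NC, 2.16 ± 0.573 CPM for T NC and 5.22 ± 4.40 CPM in T NDE (SD, n = 3). The log2 fold change was -0.69 (SE 0.56) for T NC against NT NC and 1.26 (SE 0.55, unadjusted p 0.0434, edgeR adjusted p 0.851) for T NDE against T NC. Without T NDE replicate 3 the second was 0.30.

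In tumour-bearing mice with intact nerves, Zbtb16 and Pdk4 were the members farthest below their tumour-free level, and the receptor itself was close to it. For T NC against NT NC, 0 of 8 passed edgeR's adjusted threshold, as did 0% of tested genes. At an unadjusted p under 0.05 the count was 1 of 8 (Zbtb16), against 7.8% of tested genes. Zbtb16 and Pdk4, 2 of 8, were lower in T NC with no overlap between groups, against 7.23% of tested genes lower and 15% in either direction. The log2 fold change was above 0 for 3 of 8, against 48% of tested genes, and the median was -0.15, against -0.007 over all tested genes.

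Nerve inhibition in tumour-bearing mice went with log2 fold changes above 0 for all 8 genes, from 0.02 for Nr3c1 to 1.26 for Pdk4. For T NDE against T NC, 0 of 8 passed (0% of tested genes), and 2 of 8, Pdk4 and Zbtb16, had an unadjusted p under 0.05 (5.83% of tested genes). The median was 0.17, against 0.008 over all tested genes, of which 52.7% were above 0. Only Fkbp5, 1 of 8, was higher without overlap (log2 fold change 0.10, SE 0.10), against 4.55% of tested genes higher and 9.14% in either direction. Without T NDE replicate 3, Dusp1 was at -0.16, Klf9 at -0.29, Sgk1 at 0.00 and Tsc22d3 at 0.19 in place of 0.50, while Zbtb16 was at 0.91, and 5 of 8 were above 0 (49% of tested genes).

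In tumour-free mice the same treatment went with a higher Fkbp5 level, given above, and lower Dusp1 (log2 fold change -0.35, SE 0.24) and Tsc22d3 levels, none of which passed. For NT NDE against NT NC, 0 of 8 passed (0% of tested genes) and 1 of 8, Fkbp5, had an unadjusted p under 0.05 (10.4% of tested genes). Tsc22d3 and Dusp1, 2 of 8, were lower without overlap, against 9.18% of tested genes lower and 18.9% in either direction. Above 0 were 2 of 8 log2 fold changes (51.1% of tested genes), with a median of -0.075 (0.005 over all tested genes), and without the 3 libraries with salivary transcripts 4 of 8 were above 0 (50.8%).

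**Figure D2:**
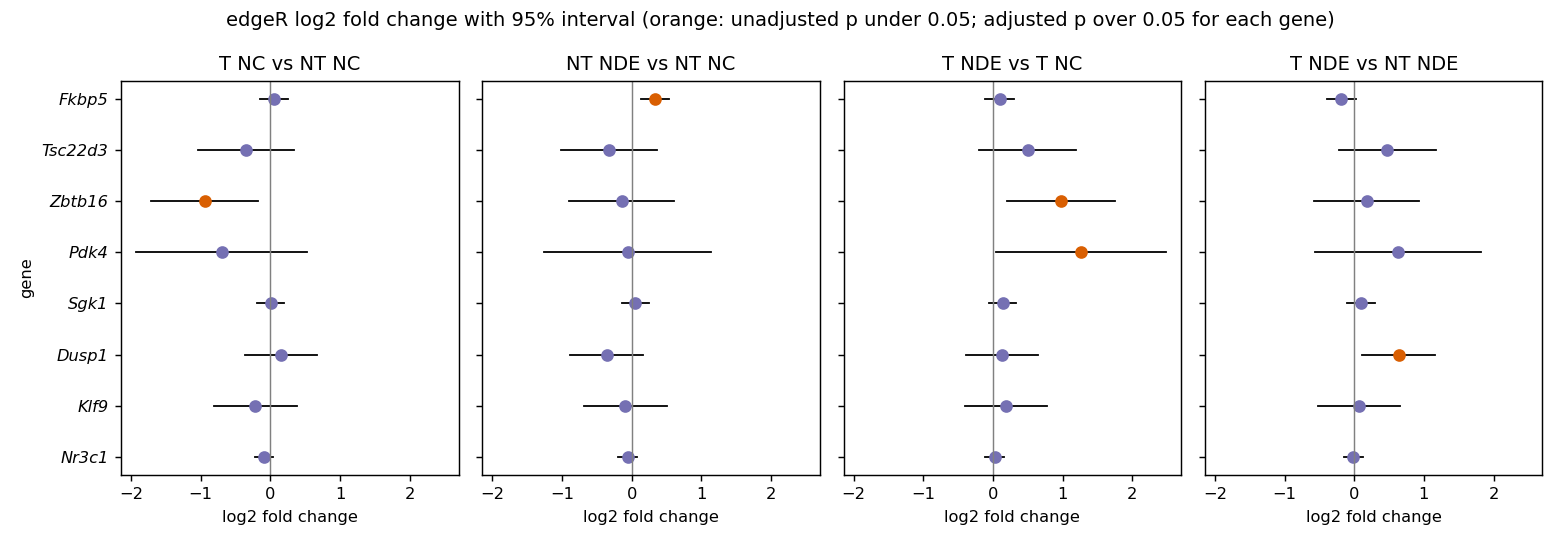
Log2 fold change of each gene (x axis, 0 means no difference) in the 4 group-against-group comparisons, with 95% intervals from the edgeR fit and unadjusted p under 0.05 in orange. Most intervals include 0; Fkbp5 for NT NDE against NT NC (0.13 to 0.54) and Zbtb16 for T NDE against T NC (0.21 to 1.76) are among those that do not, and none passed after adjustment over all tested genes.

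Between the nerve-inhibited groups, T NDE against NT NDE, 0 of 8 passed, against 0.00578% of tested genes, which is 1 gene. Dusp1, 1 of 8, had an unadjusted p under 0.05 (3.7% of tested genes) and was also the 1 gene of 8 higher without overlap (4.1% of tested genes higher, 8.43% in either direction). Its log2 fold change of 0.64 became 0.35 without T NDE replicate 3. In this comparison 6 of 8 were above 0 (50.3% of tested genes), and 3 of 8 when that library was left out (51% of tested genes). Klf9 then moved from 0.07 to -0.41 (unadjusted p 0.00461) and Pdk4 from 0.63 to -0.33.

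Whether nerve inhibition acted differently with and without a tumour was tested as an interaction, the NDE against NC difference with a tumour less the same difference without one. Here 0 of 8 passed (0% of tested genes), 1 of 8 had an unadjusted p under 0.05 (7.11% of tested genes), and 7 of 8 were above 0 (51.1% of tested genes). That 1 gene was Zbtb16, with a log2 difference of 1.12 (SE 0.50, unadjusted p 0.0429, edgeR adjusted p 0.698), which was 0.57 without the 3 libraries with salivary transcripts. Without T NDE replicate 3, 5 of 8 were above 0 (49.9% of tested genes). The difference was 1.32 (SE 0.77) for Pdk4 and 0.82 (SE 0.43) for Tsc22d3, and these became 0.36 and 0.52 without T NDE replicate 3. Fkbp5 was the 1 gene below 0, at -0.24 (SE 0.13, unadjusted p 0.101). It was at -0.36 without the 3 libraries with salivary transcripts, a fit in which NT NC is 1 library.

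Averaged over tumour status, Fkbp5 was at 99.6 CPM in the 6 NDE libraries and 85.6 CPM in the 6 NC libraries, a log2 fold change of 0.21 (SE 0.07, unadjusted p 0.00671, edgeR adjusted p 0.355). It was the only 1 of 8 with an unadjusted p under 0.05 (9.2% of tested genes), 0 of 8 passed (0.0983% of tested genes, or 17 genes), and 6 of 8 were above 0 (53.7% of tested genes), against 4 of 8 without T NDE replicate 3 (50% of tested genes). Leaving out the 3 libraries with salivary transcripts gave 0.30 for Fkbp5, with NT NC held by replicate 1 alone. Fkbp5 passed in none of 18 alternative fits. Averaged over nerve status, Dusp1 was at 25.5 CPM in the T libraries and 19.6 CPM in the NT libraries, a log2 fold change of 0.39 (SE 0.17, unadjusted p 0.0376, edgeR adjusted p 0.992), which was 0.25 (unadjusted p 0.0742) without T NDE replicate 3. For T against NT, 0 of 8 passed (0% of tested genes), 1 of 8 had an unadjusted p under 0.05 (4.5% of tested genes) and 3 of 8 were above 0 (49.6% of tested genes), against 1 of 8 without T NDE replicate 3 (49.1% of tested genes). Klf9 was at -0.07 in this comparison and at -0.31 without T NDE replicate 3 (unadjusted p 0.00176, edgeR adjusted p 0.227). DESeq2 and limma-voom also passed 0 of 8 in each of the 7 comparisons.

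For 4 of the 8 genes the spread between libraries was widest in T NDE, with a coefficient of variation of 84.4% for Pdk4, 48.8% for Klf9, 31.6% for Dusp1 and 16.6% for Sgk1. It was widest in NT NC for Fkbp5 (16.4%) and Zbtb16 (51.7%), and in T NC for Tsc22d3 (38.3%) and Nr3c1 (6.09%). T NDE replicate 3 was the highest of the 12 libraries for 5 of 8 genes, Tsc22d3, Pdk4, Sgk1, Dusp1 and Klf9, and it was the highest for 13.1% of tested genes. Against the mean of the other 2 T NDE libraries on the log2 scale it was 3.75-fold for Pdk4, 2.17-fold for Klf9, 1.72-fold for Tsc22d3, 1.67-fold for Dusp1 and 1.30-fold for Sgk1. Zbtb16 at 1.23-fold, Nr3c1 at 1.05-fold and Fkbp5 at 0.954-fold were closer. Among tested genes ranked by this ratio, Pdk4 was at the 98.9th percentile and Fkbp5 at the 36.4th. Fkbp5 was thus not high in the library where these 5 members were.

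**Figure D3:**
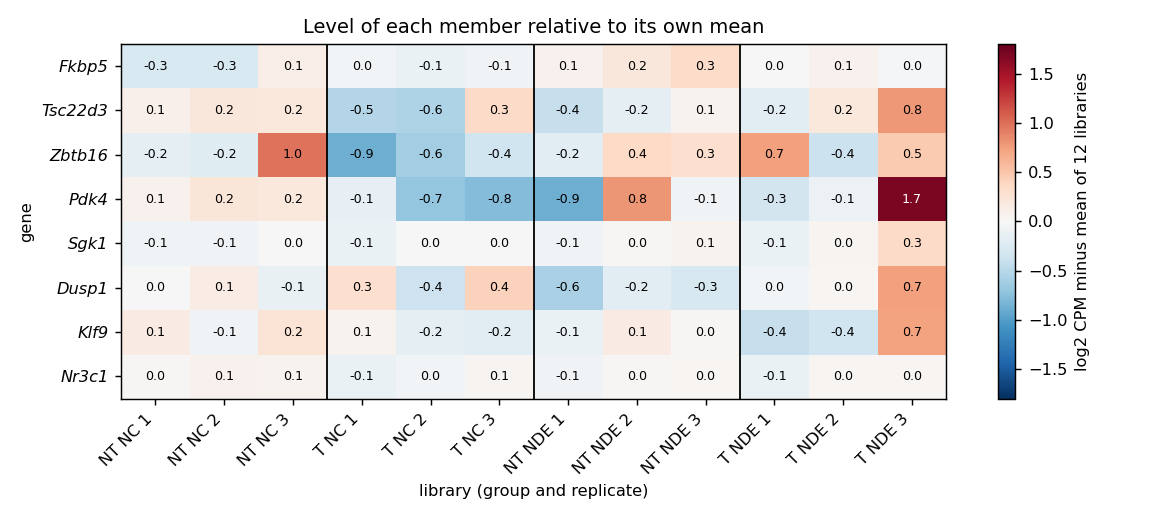
Log2 level of each gene (rows) in each of the 12 libraries (columns), as the difference from the gene's mean over all libraries; colour and printed value give the same number. The T NDE 3 column is high for Pdk4, Klf9, Tsc22d3 and Dusp1, and the Fkbp5 row is highest in NT NDE 3.

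The same library carried the salivary, adipocyte and red blood cell transcripts given above, and their part in these values was not tested. Adipoq, the adipocyte hormone, was at 4.48 CPM there and at 0.26 to 2.61 CPM elsewhere, and Fabp4 at 41.9 CPM against 8.19 to 19.6 CPM. Skeletal muscle genes summed to 10.4 to 15.5 CPM in all libraries, with 11.7 CPM in T NDE replicate 3. NT NC replicate 3, the other library with a high salivary level, had Tsc22d3 (207 CPM) and Pdk4 (3.59 CPM) between the other 2 libraries of its group and Dusp1 (20.0 CPM) below them. Its Klf9 (28.2 CPM) and Sgk1 (89.8 CPM) levels were the highest of its group, Klf9 second only to T NDE replicate 3, and Zbtb16 was the 1 member for which it was the highest of 12.

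A wider list of 39 genes known to be induced by glucocorticoids showed the same library: 16 of 39 were highest in T NDE replicate 3 (41%, against 13.1% of tested genes) and 2 of 39 in NT NC replicate 3 (4.94% of tested genes). Among the 16, Ddit4, an inhibitor of mTOR signalling, was at 256 CPM there and 97.0 to 197 CPM elsewhere. Per1, a clock gene, was at 63.9 CPM against 40.3 to 58.4 CPM, and Txnip, a thioredoxin-binding protein, at 811 CPM against 528 to 689.9 CPM. Klf15, which like Pdk4 is high in muscle and fat, was at 12.9 CPM, against 8.14 CPM in NT NC replicate 3 and 2.08 to 5.25 CPM in the rest. Of 21 tested immediate early genes, which respond to handling and stimulation, 2 were highest in this library (9.52%, against the same 13.1% of tested genes). So were 7 of 16 clock genes (43.8%), including Per1, Nr1d1 and Tef. Also highest there were 5 of 16 fasting genes (PPAR or FOXO targets, 31.2%) and 4 of 13 fibroblastic reticular and endothelial genes (30.8%). These lists share genes with the induced list: Per1 of the clock genes and Txnip of the fasting genes are among the 16 induced genes above. For neutrophil genes the count was 1 of 15, and for genes of innate-like T cells 0 of 16.

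**Figure D4:**
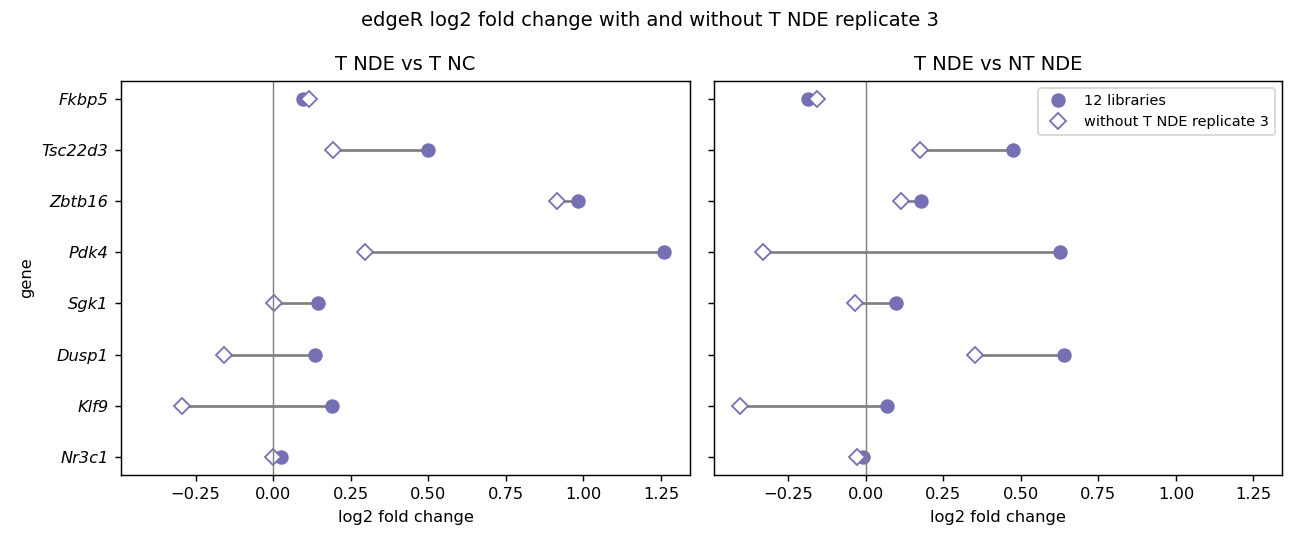
Log2 fold change of each gene with all 12 libraries and without T NDE replicate 3 (circles and open diamonds, x axis), for T NDE against T NC and against NT NDE. Klf9 and Pdk4 moved most; Klf9 went from 0.19 to -0.29 for T NDE against T NC, and Fkbp5 (0.10 and 0.12) and Zbtb16 (0.98 and 0.91) moved little.

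Within groups most pairs of members varied in the same direction. Log2 levels were centred on their group mean, and 27 of 28 pairs of members had a positive Pearson r over the 12 libraries, with a median of 0.38. Without T NDE replicate 3 the count was 25 of 28 and the median 0.24. The points share libraries, and hence depth and tissue content, so these values describe the libraries. The share of positive r over all pairs of tested genes was not computed, so the counts have no background beside them. For Pdk4 and Klf9, r was 0.88 (exact permutation p 0.00849, adjusted over all tested genes 0.581) and rho 0.78 (exact permutation p 0.0185). It was 0.77 without the 2 libraries farthest from the median and 0.68 without T NDE replicate 3. For Tsc22d3 and Nr3c1, r was 0.84 (exact permutation p 0.0332, adjusted 0.838) and rho 0.83 (exact permutation p 0.0116), with 0.89 and 0.87 on the same removals. For Sgk1 and Klf9, r was 0.80 (exact permutation p 0.155) and rho 0.46 (exact permutation p 0.289), and r was 0.05 without T NDE replicate 3, so that relation rested on 1 library.

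**Figure D5:**
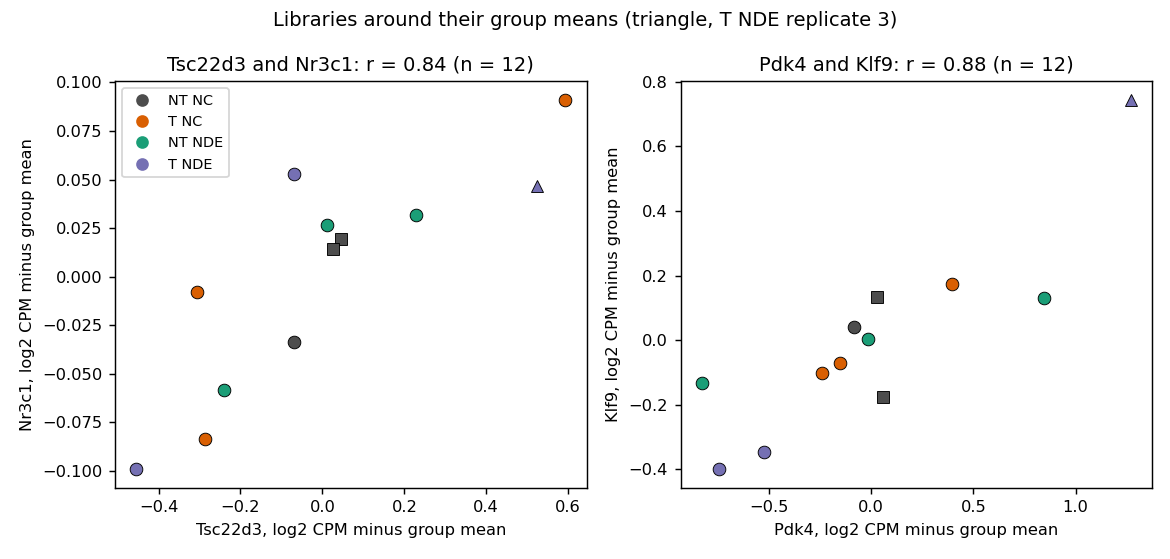
Group-centred log2 levels of pairs of members, 1 point per library (12 libraries, colours by group; triangle, T NDE replicate 3), for Tsc22d3 with Nr3c1 (r 0.84) and Pdk4 with Klf9 (r 0.88). In the second panel the triangle is the point farthest to the upper right, and r without it was 0.68.

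How Fkbp5 varied with the other members depended on the libraries included. Over all 12 its highest r was with Zbtb16 (r 0.58, exact permutation p 0.171; rho 0.43, exact permutation p 0.316; 0.54 without the 2 farthest libraries), and this was 0.09 without the 3 libraries with salivary transcripts. With the other 6 members r ran from -0.02 for Dusp1 to 0.26 for Nr3c1 (exact permutation p 0.229; rho 0.33, exact permutation p 0.216). Ranked among the r of Fkbp5 with all tested genes, these 6 lay at percentiles 46.8 (Dusp1) to 77.1 (Nr3c1), and Zbtb16 at 96.4. Without the 3 libraries with salivary transcripts the 6 r values were higher, from 0.47 for Klf9 and Nr3c1 to 0.59 for Sgk1. Without T NDE replicate 3 alone they ran from 0.10 for Dusp1 to 0.57 for Klf9. Over all 12 libraries 0 of 17300 genes passed after adjustment, where the smallest p that the 1296 arrangements allow is 0.000772. Over the 12 libraries without centring, the genes most like Fkbp5 among 11217 searched were the monocarboxylate transporter Slc16a3 (r 0.901), the calpain gene Capn2 (r 0.887) and the ubiquitin ligase gene Skp2 (r 0.861). For Dusp1 they were Zfp87 (r 0.873), Btg3 (r 0.86) and Zfp655 (r 0.826), and for Nr3c1 they were Zfp125 (r 0.836), Miga1 (r 0.826) and Synj1 (r 0.82). These were picked as the highest of many, so no test is given.

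Genes that surround the receptor were at most slightly different between groups. Of 16 tested genes for receptor folding, co-regulation and hormone conversion, 0 passed edgeR's adjusted threshold in any comparison, and 0 did by DESeq2 or limma-voom. For NDE against NC averaged over tumour status, 14 of 16 were above 0 (53.7% of tested genes) and 5 had an unadjusted p under 0.05 (9.2% of tested genes), with a median log2 fold change of 0.07. Without T NDE replicate 3 these counts were 12 and 2. Stip1, the HSP70-HSP90 adaptor, was at 90.9, 91.4 and 102 CPM in NT NC and 121, 109.97 and 115 CPM in NT NDE, without overlap (log2 fold change 0.27, SE 0.08, edgeR adjusted p 0.258). Hsd11b1, which regenerates active hormone from its inactive form, had a log2 fold change of -0.16 (SE 0.06, edgeR adjusted p 0.429) for NDE against NC. Of the 12 other FKBP immunophilins, 10 had log2 fold changes above 0 for NT NDE against NT NC (51.1% of tested genes), and 7 did without the 3 libraries with salivary transcripts. Among them were Fkbp2 at 0.30 (edgeR adjusted p 0.300) and Fkbp1a at 0.19 (edgeR adjusted p 0.309), which were at 0.51 and 0.11 without those libraries.

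Of the 39 other induced genes, 0 passed by any of the 3 tools in any comparison of all 12 libraries. In edgeR 6 had an unadjusted p under 0.05 for T NC against NT NC (7.8% of tested genes), 6 for NT NDE against NT NC (10.4%) and 6 for the interaction (7.11%), with 0 to 5 in the others. The highest count was 9 in DESeq2 and 7 in limma-voom. Without T NDE replicate 3, Mertk, a receptor for the uptake of dying cells, was lower in T than in NT (log2 fold change -0.52, edgeR adjusted p 0.00838). Their median log2 fold change ran from -0.04 for T NC against NT NC to 0.13 for the interaction, which was 0.0096 without T NDE replicate 3. Il1r2, the decoy receptor for interleukin-1, was at 4.83, 4.45 and 3.01 CPM in NT NC and 7.32, 6.36 and 6.94 CPM in T NC. It was higher in all T NC libraries (log2 fold change 0.74, SE 0.20, edgeR adjusted p 0.465). Zfp36, which destabilises inflammatory mRNA, had a log2 fold change of 0.25 (SE 0.07, edgeR adjusted p 0.253) for NT NDE against NT NC.

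Inflammatory genes that the receptor represses were lower with both tumour and nerve inhibition than with tumour alone in 16 of 18 tested, and the median log2 fold change of T NDE against T NC was -0.37 (52.7% of tested genes were above 0). In edgeR and limma-voom 0 of 18 passed, and 4 of 18 had an unadjusted p under 0.05 in edgeR (5.83% of tested genes). Ccl2, a monocyte chemokine, was at 6.05, 6.82 and 10.5 CPM in T NC and 2.32, 3.67 and 2.10 CPM in T NDE. The 2 groups did not overlap, and the log2 fold change of -1.51 (SE 0.32) had an edgeR adjusted p of 0.359 but passed in DESeq2. For T NC against NT NC 14 of 18 were above 0 (48% of tested genes), with a median of 0.32 and Mmp9 at 0.70 (SE 0.17, edgeR adjusted p 0.465), which also passed in DESeq2. Neutrophil gene levels differed along the same groups: 15 of them summed to 147 to 288 CPM for NT NC, 359.8 to 615 CPM for T NC, 321 to 387 CPM for NT NDE and 248 to 326 CPM for T NDE, and their part in these values was not tested.

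Among the relatives of the members, Pdk1 came nearest to the threshold. It measured 178, 167 and 173 CPM for NT NC, 154, 160.1 and 141 CPM for T NC, 139, 151 and 126 CPM for NT NDE, and 139, 121 and 127 CPM for T NDE. All NDE libraries were below all NC libraries, except that NT NDE replicate 2 (151 CPM) was above T NC replicate 3 (141 CPM). The log2 fold change of NDE against NC was -0.27 (SE 0.05, edgeR adjusted p 0.0697), which passed in DESeq2. Pdk4 had 0.60 (SE 0.39) in the same comparison, and 0.12 without T NDE replicate 3. Jun, an immediate early gene, was at 30.9, 32.5 and 32.6 CPM in NT NC and higher in all 9 other libraries (34.4 to 50.9 CPM), and its interaction of -0.67 (SE 0.15, edgeR adjusted p 0.501) passed in DESeq2. In the other families, Dusp2 (0.19 for T against NT), Klf10 (0.29 for NDE against NC), Tsc22d2 (0.14 for NDE against NC) and Sgk3 (-0.06 for T against NT) did not pass.

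Because Zbtb16 marks innate-like T cells, genes of those cells were read beside it. Of 16 tested, 13 were above 0 for T NDE against T NC (52.7% of tested genes), 5 had an unadjusted p under 0.05 (5.83% of tested genes), and their median was 0.20. Sox13, a factor of gamma-delta T cells, was at 7.77, 8.79 and 7.41 CPM in T NC and 19.1, 12.2 and 16.2 CPM in T NDE, without overlap (log2 fold change 1.00, SE 0.17, edgeR adjusted p 0.185; passed in DESeq2). Maf, a factor of several T cell types, was the 1 gene of this list that passed in edgeR with all 12 libraries: it rose with nerve inhibition averaged over tumour status (log2 fold change 0.33, SE 0.04, adjusted p 0.0190). It was at 106 to 119 CPM in the 6 NC libraries and 126 to 151 CPM in the 6 NDE libraries. Maf did not pass in 7 of 18 alternative fits, with an adjusted p of 0.0511 in limma-voom, 0.0751 with the replicate block, 0.0781 and 0.0901 without NT NC replicate 1 or 2, and 0.0619, 0.109 and 0.0607 without NT NDE replicate 1, 2 or 3, and its log2 fold change was 0.309 to 0.355 throughout. Without the 3 libraries with salivary transcripts the log2 fold change in this comparison was 0.40 for Ccr6 and 1.86 for Il17f. NT NC was then replicate 1 alone. That library had the lowest Ccr6 level of the 12 (68.4 CPM), and its Il17f level was 0.17 CPM. The part of these cells in the Zbtb16 values was not tested.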

How the data were processed

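The authors deposited 1 table of integer read counts per gene, without normalization. HISAT2 2.0 and the mm10 build come from the submitters' processing notes, and mRNA libraries from the labels' protocols. The counter, annotation, strand setting and read filters are details not given in the sources used here. The fit used edgeR 4.0.16 in R 4.3.3: TMM normalization (factors 0.967 to 1.01), filterByExpr (minimum count 10, minimum total 15), 1 mean per group over all 12 libraries, and the robust quasi-likelihood test. P values were two-sided and adjusted by the Benjamini-Hochberg method over all 17301 tested genes per comparison, with a threshold of 0.05. DESeq2 1.42.0 and limma-voom (limma 3.58.1) were alternatives. CPM values of the members use TMM-scaled library sizes, and RPKM divides by the length of all exons of a gene in GENCODE. CPM values and summed levels of the other gene lists use library totals without the TMM factors. At most 0.0548% of a library's counts fell on IDs with no symbol. Correlations used log2 CPM with a prior count of 2 and exact permutations within groups. The scripts were tested on simulated data. Permuting 3 libraries against 3 allows no p below 0.1. The tests used instead draw the spread of each gene toward that of all genes. Their p-values set each difference against this spread between libraries.

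The 8 genes and the 20 further lists were chosen with earlier results of these data known. From some lists, genes that pass or are among the 2 with the smallest p are named. This was not done for every list, and not every such gene is reported. Those of the fasting, clock, adipocyte and neutrophil lists, for example, are left out. A few more genes were chosen after their values were seen (Ddit4, Per1, Txnip, Klf15, Adipoq, Fabp4, Mertk, Ccr6, Il17f). One gene of the lymph node marker list is not reported here and was left out of the list's sums. Correlations over all pairs, fits of Fkbp5 without T NDE replicate 3 and alternative fits of the lists were added after the data were seen.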

Additional observations from a re-analysis of the deposited data

How the results depend on the processing

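Each of the 56 log2 fold changes of the 8 genes was refitted under alternatives, 848 in all: 795 kept their direction, 53 changed it, none passed the threshold, and 34 of the 56 never changed direction. The cause of the changes was not tested. Klf9 for T NDE against NT NDE was -0.0143 in limma-voom. Without the 3 libraries with salivary transcripts, values of opposite sign were Dusp1 -0.16 and Klf9 -0.29 (T NDE against T NC), Zbtb16 0.35 and Pdk4 0.0301 (NT NDE against NT NC), Pdk4 -0.33, Sgk1 -0.0299 and Klf9 -0.40 (T NDE against NT NDE), Sgk1 -0.0761 and Klf9 -0.16 (interaction), Tsc22d3 -0.027 and Klf9 -0.21 (NDE against NC), and Fkbp5 0.0288 and Tsc22d3 -0.0433 (T against NT). The correlation of Fkbp5 with Tsc22d3 was -0.05 without centring, and that with Dusp1 was 0.57 without those 3 libraries and 0.10 without T NDE replicate 3.

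Leaving out 1 library at a time changed the sign of 22 results, whose ranges follow. For T NC against NT NC they were -0.0142 to 0.20 (Fkbp5) and -0.0049 to 0.0486 (Sgk1). For T NDE against T NC they were -0.16 to 0.27 (Dusp1), -0.29 to 0.38 (Klf9) and -0.0174 to 0.0665 (Nr3c1). For NT NDE against NT NC they were -0.35 to 0.37 (Zbtb16) and -0.60 to 0.27 (Pdk4). For T NDE against NT NDE they were -0.0695 to 0.45 (Zbtb16), -0.33 to 1.16 (Pdk4), -0.0363 to 0.20 (Sgk1), -0.41 to 0.26 (Klf9) and -0.0389 to 0.0377 (Nr3c1). For the interaction they were -0.0478 to 0.18 (Sgk1) and -0.20 to 0.47 (Klf9). For NDE against NC they were -0.0663 to 0.26 (Tsc22d3), -0.19 to 0.14 (Klf9) and -0.0378 to 0.0030 (Nr3c1). For T against NT they were -0.10 to 0.0055 (Fkbp5), -0.11 to 0.17 (Tsc22d3), -0.51 to 0.24 (Pdk4), -0.0124 to 0.10 (Sgk1) and -0.31 to 0.0275 (Klf9).

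The number of genes that passed, over all tested, was 0, 0, 0, 1, 0, 17 and 0 for, in order, tumour with intact nerves, nerve inhibition with a tumour, nerve inhibition without one, tumour under nerve inhibition, the interaction, NDE against NC and T against NT. In that order DESeq2 gave 40, 44, 138, 17, 43, 130 and 6, and without the 3 libraries with salivary transcripts the counts were 7, 1, 33, 28, 3, 49 and 66. With no filter on low counts they were 4, 12, 43, 1, 1, 41 and 2. In limma-voom, 0 genes passed for T NDE against NT NDE and 0 for NDE against NC. Fitting only the groups compared gave 37 for NT NDE against NT NC. Leaving out 1 library gave 0 to 2, 0 to 1, 0 to 1, 0 to 4, 0 to 2, 0 to 30 (the highest without T NDE replicate 1) and 0 to 22 (the highest without T NDE replicate 3).

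Of 18 pairs of libraries with the same replicate number, 2 had a correlation over 0.1. Both were of NT NC with T NDE, at 0.52 for replicate 3 and 0.30 for replicate 1. The replicate 3 libraries of these groups had 30310 and 41980 CPM of salivary gland transcripts, whose part in this value was not tested. With 3 numbers to choose from, 7 of 12 libraries correlated best with their own number. These values do not settle whether the numbers mark pairs, and the main fit did not take them as pairs. With the replicate block 3 genes passed for NT NDE against NT NC, 3 for T NDE against NT NDE, 1 for the interaction and 1 for NDE against NC, and 0 of the 8 genes passed. Depth limits Pdk4 and Zbtb16 most, which rest on as few as 30 and 62 counts.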
